A study of Mus musculus with 103 samples.

Results

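The 40 genes followed here are used by cells to copy their DNA and to divide, and they were read in mouse tissue samples of 29 groups. They are 20 mitotic genes and 20 DNA replication genes, chosen by symbol, and each was read from the probe set with the highest mean over all samples. All 40 were on the array, among 17097 genes with a probe set of their own. Of the samples, 40 were cells bound by magnetic beads against Prominin1, the protein encoded by Prom1, 56 were primary tumours and 7 were metastases, all dissected. Sorted groups were untreated liver (5 samples), neonatal liver (3 samples), liver of mice given DDC (9 samples), a toxic compound known for injuring bile ducts, stomach (2 samples), uterus, kidney and lung (4 samples each), and small intestine, salivary gland and prostate (3 samples each). Among primary tumours, the liver gave 14 hepatocellular carcinomas/cholangiocarcinomas (HCC/CC) and 2 hepatoblastomas, the stomach 7 gastric adenomas and 4 gastric adenocarcinomas, and the bowel 3 small and 5 large intestinal adenomas. There were also 8 prostatic adenocarcinomas, 3 uterine carcinomas, 2 lung adenocarcinomas and 8 squamous cell carcinomas, of which 4 were perineal, 3 perioral and 1 periorbital. The 7 metastases were of gastric adenocarcinoma (abdomen and liver), uterine carcinoma (abdomen and liver), HCC/CC (lung and intestine) and hepatoblastoma (lung), with 1 sample each. The series describes tracing and oncogene targeting of Prom1-expressing cells, but the labels give no genotype, driver or animal for any group, no age beyond neonatal, and DDC as the only agent.

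A dividing cell first duplicates its genome. The origin recognition complex, Cdc6 and Cdt1 load the Mcm2 to Mcm7 helicase, Cdc45 and the GINS complex activate it, Mcm10 takes part in the start of unwinding, and primase, Pcna and Fen1 make and join the new strands from nucleotides supplied by Rrm1, Rrm2, Tyms and Tk1. Mitosis then uses Cdk1 with cyclins, the kinases Aurka, Aurkb, Plk1, Bub1, Bub1b and Ttk, the motors Kif11, Kif20a and Kif23, the spindle proteins Tpx2 and Nusap1, the centromere and chromosome proteins Cenpf, Birc5, Top2a and Mki67, and the ubiquitin enzyme Ube2c with its partner Cdc20 to end it. In adult tissue such genes are expressed mainly in renewing compartments such as intestinal crypts, and in tumours and growing organs. As background, mitotic promoters are known for CHR elements with CCAAT boxes, and promoters of many replication genes for E2F sites.

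The promoter windows are shown because the genes of each class moved together across tissues. RefSeq windows of 300 bases (250 before and 50 after the gene start, GRCm38.p6) matched 33 members by symbol, 16 mitotic and 17 replication. Stretches of 4 of them follow, written 5′ to 3′ on the strand of the gene, with capitals on the searched motifs: CHR (TTTGAA or TTTAAA), E2F (TTTGGCGC, TTTCCCGC, TTTGCCGC or TTTCGCGC) and the CCAAT box. Each was read on both strands, so its reverse complement is in capitals too. They lie at chr11:99024190-99024299 (Top2a, minus strand), chr2:164769829-164769928 (Ube2c, plus strand), chr1:128359706-128359825 (Mcm6, minus strand) and chr8:75109349-75109508 (Mcm5, plus strand).
Top2a: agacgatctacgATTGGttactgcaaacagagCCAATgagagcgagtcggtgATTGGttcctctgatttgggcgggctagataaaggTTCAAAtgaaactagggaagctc
Ube2c: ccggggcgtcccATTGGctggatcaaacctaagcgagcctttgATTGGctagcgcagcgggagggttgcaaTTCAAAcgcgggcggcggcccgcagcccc
Mcm6: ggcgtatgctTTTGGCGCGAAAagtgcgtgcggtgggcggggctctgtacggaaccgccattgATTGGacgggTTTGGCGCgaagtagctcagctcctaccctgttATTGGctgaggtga
Mcm5: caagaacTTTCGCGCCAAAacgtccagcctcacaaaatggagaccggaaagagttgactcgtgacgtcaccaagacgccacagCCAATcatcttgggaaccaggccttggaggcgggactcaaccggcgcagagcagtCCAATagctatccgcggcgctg

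All the stretches show CCAAT boxes. The mitotic pair also shows a CHR near the gene start, and the replication pair shows E2F letters, at places overlapping on both strands. A CHR was present in 14 of 16 mitotic windows (87.5%), absent from those of Bub1 and Nusap1, and in 6 of 17 replication windows (35.3%), beside 27.6% of all 32851 windows. E2F letters were found in 7 of 17 replication windows (41.2%), those of Mcm3, Mcm5, Mcm6, Mcm7, Cdc6, Cdt1 and Orc1, and in 1 of 16 mitotic windows (6.25%), that of Cdk1, beside 2.26% of all windows. A CCAAT box was present in 14 mitotic and 12 replication windows, beside 37.4% of all windows. A match describes letters in the window and is no evidence of a bound site.

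Values are deposited log2 levels, and they are comparable between samples for a gene but not between genes. Array medians lay between 3.82 and 4.24, and levels under 4.10, the 40th percentile of gene levels, are near the background, so a difference from such a level is a lower bound. Prom1 itself stood at 8.02 to 12.2 in sorted cells of kidney, prostate, salivary gland, small intestine, stomach, uterus and neonatal liver, at 5.30 to 6.79 in lung cells and at 2.64 to 4.24 in the 5 untreated liver samples, which therefore go against their Prom1-positive label. DDC samples 1 and 2 were as low (3.92 and 3.31), against 6.10 to 9.31 in the other 7. Among sorted cells, the means of 10 epithelial markers such as Epcam and Cdh1 lay at 9.70 to 10.9 in prostate, salivary gland, small intestine, stomach and uterus, at 6.76 to 6.85 in kidney and at 5.25 to 6.04 in untreated liver and lung. Labels name no separate animals, so the p-values measure only the spread between these samples.

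Both classes ordered the tissues in nearly the same way, from small intestine, uterine carcinoma and neonatal liver at the top to kidney and untreated liver cells at the bottom. The mean of the 20 mitotic genes was 7.98 ± 0.36 (SD, n = 3) in small intestine cells, 7.93 ± 0.59 (n = 3) in uterine carcinoma, 7.92 ± 0.38 (n = 3) in small intestinal adenoma and 7.85 ± 0.03 (n = 3) in neonatal liver cells. These 4 groups overlapped. The squamous carcinomas followed with means of 7.45 to 7.52, then stomach cells (7.12 ± 0.83, n = 2) and, at 6.82 to 6.88, gastric adenoma, gastric adenocarcinoma and large intestinal adenoma, which overlapped each other too. Prostatic adenocarcinoma (6.18 ± 1.22, n = 8), uterus cells (6.17 ± 0.28, n = 4), DDC liver cells (5.82 ± 1.14, n = 9) and HCC/CC (5.19 ± 0.80, n = 14) lay in the middle and also overlapped their neighbours. At the low end stood lung cells (4.53 ± 0.51, n = 4), salivary gland cells (4.17 ± 0.07, n = 3), prostate cells (3.83 ± 0.14, n = 3), untreated liver cells (3.83 ± 0.42, n = 5) and kidney cells (3.64 ± 0.06, n = 4). Salivary gland samples did not overlap prostate samples, and the last 3 groups overlapped.

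The mean of the 20 replication genes ran from 7.84 ± 0.19 (n = 3) in small intestinal adenoma and 7.80 ± 0.36 (n = 3) in small intestine cells to 5.33 ± 0.05 (n = 4) in kidney and 5.26 ± 0.46 (n = 5) in untreated liver cells. Uterus cells, with a replication mean of 7.12 ± 0.35 (n = 4), ranked 11 by replication and 19 by mitotic mean. Over the 29 group means the classes had a Pearson r of 0.968, a description of points that share arrays and scaling. The same means had an r of -0.011 (mitotic class) with Prom1. The mitotic mean also had an r of -0.59 with the actin 3' minus 5' difference, a measure that grows with RNA degradation, and 0.517 with the epithelial marker mean. The part of these in the order was not tested. In dissected or sorted tissue, fewer dividing cells and less RNA of these genes per cell cannot be told apart.

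**Figure D1:**
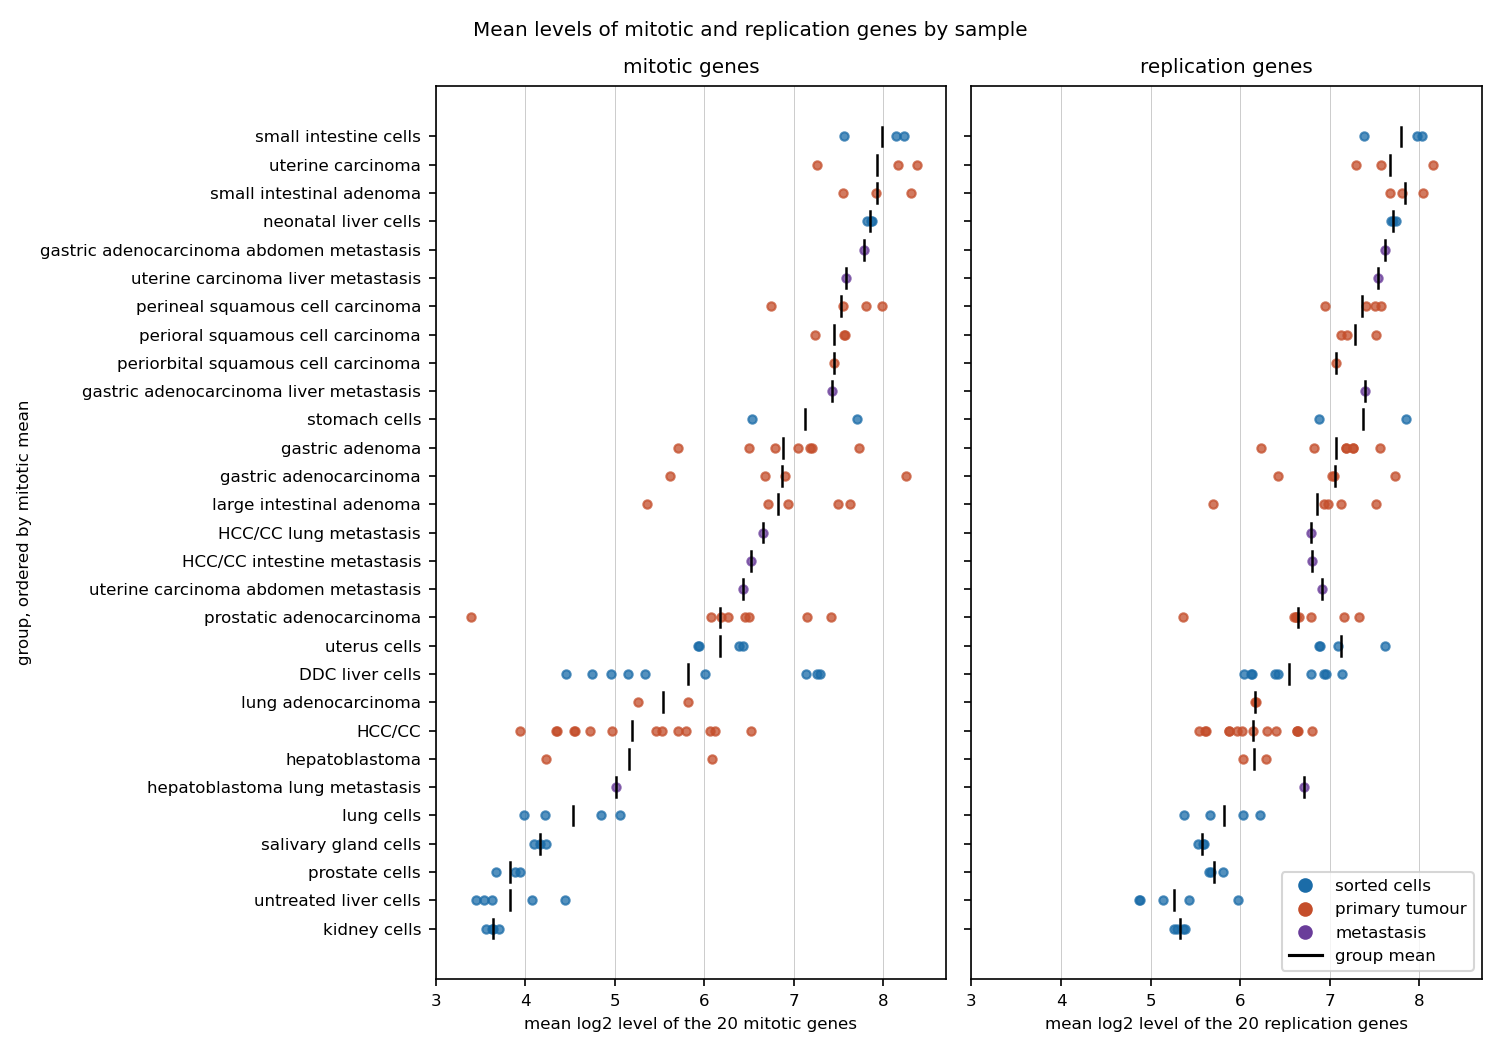
Mean log2 level of the 20 mitotic genes (left) and the 20 replication genes (right) in each sample, with 1 point per sample, a bar at each group mean and groups ordered by mitotic mean. Small intestine cells stood at 7.56 to 8.23 and kidney cells at 3.56 to 3.71 for the mitotic mean, and prostatic adenocarcinoma 8 lay at 3.39, far below the other 7 tumours of its type.

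Within the mitotic class the genes kept close together. Their group means spanned 2.87 (Kif23, a motor of the midbody) to 6.61 (Ube2c, which tags mitotic cyclins for destruction) log2 units between the lowest and highest tissue, with a median span of 4.71, and the median r of a gene with the mean of its 19 class mates was 0.972. Small intestine cells were the highest group for 7 mitotic genes and uterine carcinoma for 4, while kidney cells were the lowest for 11. Replication genes spanned less, from 1.41 (Orc1) to 5.30 (Rrm2, the regulated ribonucleotide reductase subunit), with a median span of 3.61 and a median r of 0.854. Untreated liver cells were the lowest group for 12 of them and small intestinal adenoma the highest for 6. All 20 mitotic genes were closer to their own class mean than to the other, but only 12 of 20 replication genes were; Rrm1, Rrm2, Fen1, Tyms and Cdc45 were among those with the higher r to the mitotic mean.

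**Figure D2:**
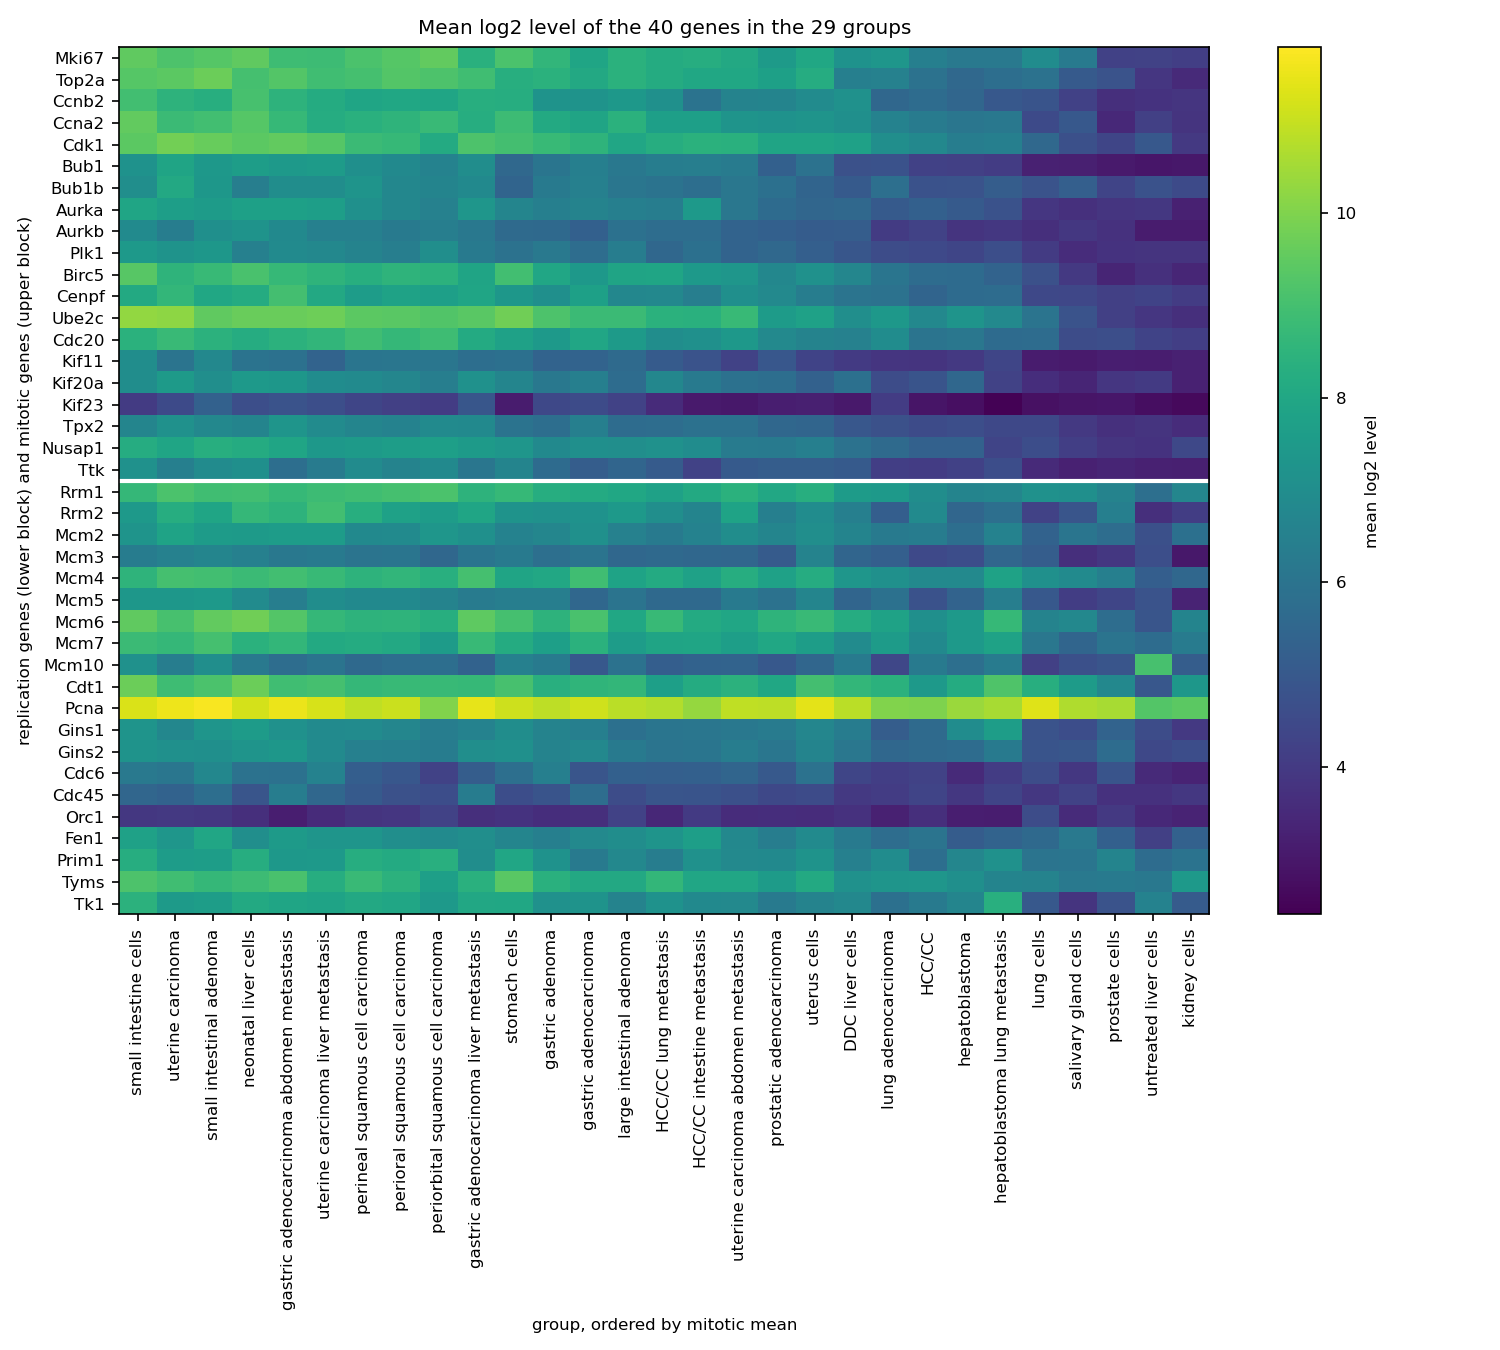
Mean log2 level of each gene (rows, mitotic above the white line and replication below it) in each of the 29 groups (columns, ordered by mitotic mean), with colour giving the level. Most rows fade from left to right; Pcna stays bright throughout (9.28 to 11.7), Orc1 stays dark (3.17 to 4.58), and Mcm10 has its highest cell, 9.07, in untreated liver cells.

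The members that moved least with their class were Kif23 (r = 0.802), Bub1b (0.895) and Ttk (0.936) among mitotic genes and Orc1 (0.112), Mcm10 (0.129) and Pcna (0.735) among replication genes. Orc1, the largest subunit of the origin recognition complex, lay near the background in nearly every sample, and its highest group mean came from 1 lung sample at 7.20 beside 3.61 to 3.80 in the other 3. Another Orc1 probe set had an r of 0.79 with the class. Mcm10 read 8.99, 6.46, 11.01, 9.03 and 9.86 in untreated liver cells against 5.80, 6.56 and 6.25 in neonatal liver cells. That reading belongs to the probe set used: 2 others for Mcm10 gave untreated liver means of 4.01 and 2.75, at or below the background, beside neonatal means of 3.18 and 2.67. Kif23's second probe set had a mean level of 2.98 and an r of -0.031, and 4 further sets of Tyms, the enzyme that makes thymidylate, had mean levels of 2.74 to 3.24.

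The genes whose 29 group means most resembled the mitotic mean were Shcbp1 (r = 0.982), Prc1 and Ncapg (0.981 each), Cep55 and Pbk (0.978 each). Those most like the replication mean were again Shcbp1 (0.964), then Hells (0.964), Cenpk (0.963), Fignl1 (0.962) and Dtl (0.958). Prc1 and Ncapg encode a spindle midzone protein and a condensin subunit, and Hells a chromatin remodeller. These r describe shared arrays and tissues and carry no test.

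Cells sorted from small intestine and stomach carried the highest mitotic and replication means of the sorted cells other than neonatal liver. Ube2c read 9.71, 10.7 and 10.5 in small intestine and 10.3 and 9.26 in stomach. Birc5, the survivin subunit of the chromosomal passenger complex, read 8.75, 9.76 and 9.54 in small intestine and 9.41 and 8.47 in stomach. Mcm6, a helicase subunit, read 9.04, 9.70 and 9.78 in small intestine and 9.56 and 8.51 in stomach, so the lower stomach sample lay below every small intestine sample for these 3 genes. Against the mean of the other organs, a member was called at an adjusted p under 0.05 in limma, adjusted over all genes, with a log2 difference of at least 1. In small intestine 38 of 40 were called higher, 20 mitotic and 18 replication, beside 10.9% of all genes, with medians of 3.30 and 1.76. The largest differences were those of Ube2c (4.55 ± 0.56 SE, adjusted p = 4.56e-08), Birc5 (4.31 ± 0.57) and Ccna2 (4.24 ± 0.49), the cyclin of S phase and G2, and among replication genes of Tk1 (2.74 ± 0.40), Mcm6 (2.58 ± 0.36) and Mcm5 (2.44 ± 0.37). Pcna, the sliding clamp, differed by 0.73 and Orc1 by 0.17, and neither was called. For 9 mitotic and 2 replication genes, the comparison had every small intestine sample above every other sorted sample it was compared with, beside 3.49% of all genes.

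In stomach 28 members were called higher, 16 mitotic and 12 replication, beside 6.76% of all genes, led by Ube2c (3.98 ± 0.68, adjusted p = 3.41e-05), Birc5 (3.84 ± 0.68) and Ccna2 (3.45 ± 0.59). Mcm6 (2.04 ± 0.44), Tk1 (2.24 ± 0.48) and Tyms (2.28 ± 0.46) led the replication genes, although Tyms became -0.18 when probe sets marked _s_, _x_ or _a_ (matching several transcripts) were left out. With those left out, here and below, Tyms was read from a set with a mean level of 3.24, near the background, so its sign there says little. The mitotic genes not called were Bub1 (1.49), Plk1 (1.42), Bub1b (0.26) and Kif23 (0.06). Without stomach sample 1 the count was 5, so it rests largely on that sample. From the wider lists, 32 of 36 other mitotic and 26 of 36 other replication genes were called higher in small intestine, and 22 and 12 of 36 in stomach. Macrophage markers such as Csf1r and C1qa went the other way in both, with 10 of 12 and 9 of 12 called lower and marker means of 4.87 to 6.68 and 4.95 to 5.19, and the part of this in the result was not tested.

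Uterus cells stood above the mean of the other organs in both classes, with medians of 1.02 for mitotic and 1.07 for replication genes, though below small intestine and stomach cells in both class means. Mcm3, a helicase subunit, read 6.69, 6.18, 6.48 and 7.12, above the prostate values of 3.65, 3.49 and 4.67 and the kidney values of 2.65 to 3.40. Top2a, the topoisomerase that untangles sister chromosomes, read 8.30, 7.76, 8.50 and 8.40, against 4.84, 4.96 and 4.62 in prostate. Altogether 22 members were called higher than in the other organs, 10 mitotic and 12 replication, beside 11.7% of all genes. Top2a (2.402 ± 0.40, adjusted p = 1.55e-05), Cdk1 (1.90 ± 0.43) and Bub1 (1.89 ± 0.45) led the mitotic genes, and Mcm3 (1.90 ± 0.42, adjusted p = 5e-04), Mcm6 (1.74 ± 0.32) and Mcm5 (1.62 ± 0.33) the replication genes. Top2a was -0.27 without _s_, _x_ and _a_ probe sets, the mean of all probe sets left Top2a (0.60), Bub1 (0.79) and Mcm5 (0.68) without a call, and median centring left 11 calls. Without the marked sets, here and below, Top2a was read from a dimmer set. Its mean level was 4.53 and its r with the class 0.766, beside 7.18 and 0.977 for the set used. All 12 fibroblast and 10 of 12 macrophage markers were higher in uterus cells too (marker means 8.25 to 9.29 and 10.1 to 10.5), and their part in the result was not tested.

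Kidney cells had the lowest mitotic mean of all groups, while several replication genes stayed well above the background, such as Pcna (9.39 to 9.49), Cdt1 (7.23 to 7.504) and Mcm6 (6.40 to 6.83). Ube2c read 3.11, 3.35, 3.81 and 4.40, Mki67, the proliferation antigen, 4.12, 4.08, 4.20 and 4.15, and Mcm5, a helicase subunit, 3.29, 3.23, 3.50 and 3.27, all 3 genes at or near the background. Against the other organs 26 members were called lower, 17 mitotic and 9 replication, beside 13% of all genes. The differences were -3.01 ± 0.50 for Ube2c (adjusted p = 5.79e-06), -2.99 ± 0.40 for Top2a and -2.77 ± 0.50 for Mki67, and -2.22 ± 0.42 for Mcm3, -2.21 ± 0.33 for Mcm5 and -1.83 ± 0.27 for Gins1, a GINS subunit. Top2a lost its call, at -0.44, without _s_, _x_ and _a_ probe sets. Mcm5 was the member whose kidney samples lay below all other sorted samples compared, beside 1.83% of all genes. Kif11 (-0.97), Bub1b (-0.78) and Kif23 (-0.50) were not called. Of the marker lists, 11 of 12 macrophage and 9 of 12 fibroblast genes were lower in kidney as well, with means of 4.85 to 4.97 and 3.25 to 3.41. The actin 3' minus 5' difference was 1.67 to 1.80 in kidney and up to 1.73 in the other sorted samples, and its part in the result was not tested.

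Prostate and salivary gland cells were also low. In prostate cells Ccna2 read 3.86, 3.07 and 3.55 and Birc5 3.33, 3.43 and 3.35, while Mcm6 stayed at 5.67, 5.47 and 6.19. Against the other organs 17 members were lower, 12 mitotic and 5 replication, beside 5.39% of all genes, led by Ccna2 (-2.67 ± 0.49, adjusted p = 8.24e-05), Mki67 (-2.66 ± 0.56) and Birc5 (-2.52 ± 0.57), and by Mcm6 (-1.68 ± 0.36), Tk1 (-1.41 ± 0.40) and Tyms (-1.36 ± 0.39). Without prostate sample 3 the count was 10, and without sample 1 or 3 neither Tk1 nor Tyms was called. Tyms was also not called with the mean of all probe sets (-0.35) or without _s_, _x_ and _a_ probe sets (-0.23). In salivary gland cells Tk1, the thymidine salvage kinase, read 3.88, 3.69 and 3.84 and differed by -2.56 ± 0.40 (adjusted p = 6.72e-06). There 18 members were called lower, 11 mitotic and 7 replication, beside 7.13% of all genes, with Birc5 (-1.84 ± 0.57) and Cdk1 (-1.75 ± 0.48) among them. Leaving out salivary sample 1, 2 or 3 left 7, 10 or 6 calls. Epithelial markers were called higher in both organs (5 and 8 of 10).

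Lung cells were spread. Ccna2 read 4.06, 5.86, 3.51 and 4.68 and Cdk1 4.19, 6.61, 3.98 and 7.52, with samples 2 and 4 higher for both genes. Called lower than in the other organs were 9 of 40 members, 6 mitotic and 3 replication, beside 14.2% of all genes. They included Ccna2 (-1.48 ± 0.43, adjusted p = 0.00569), Rrm2 (-1.59 ± 0.43) and Mcm10 (-1.95 ± 0.43), the last being 0.43 without _s_, _x_ and _a_ probe sets. Without lung sample 2 the count was 14, and with array weights it was 1. All 12 endothelial and 11 of 12 macrophage markers were higher in lung cells, and 9 of 10 epithelial markers lower.

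Untreated liver cells stood below the other organs for most members, with the Prom1 level itself -6.67 ± 0.59 against them. Cdt1, the licensing factor, read 6.38, 5.99, 4.05, 4.66 and 3.62, and Rrm2 3.90, 3.73, 3.51, 3.75 and 3.42. All 5 Rrm2 values lay below every other sorted sample compared, beside 0.602% of all genes, while those of Cdt1 overlapped. Called lower were 31 members, 17 mitotic and 14 replication, beside 13.9% of all genes, while Mcm10 was called higher (3.63 ± 0.39; 7.71% of all genes) through the probe set described above. Cdt1 (-3.30 ± 0.27, adjusted p = 2.47e-12) and Mcm6 (-2.70 ± 0.29) had the largest decreases among replication genes, beside Ube2c (-2.77 ± 0.46), Mki67 (-2.63 ± 0.45) and Top2a (-2.56 ± 0.37). Top2a lost its call at -0.97 with the mean of all probe sets and at -0.45 without _s_, _x_ and _a_ probe sets, where Mcm10 lost its own at 0.64. Kif20a (-0.72), Bub1b (-0.49) and Kif23 (-0.35) were not called. Samples 1 and 2 had mitotic means of 4.44 and 4.08 beside 3.46 to 3.63 in the other 3, and endothelial marker means of 10.3 and 10.5 beside 6.21 to 7.40.

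Neonatal liver cells were at the other extreme. Ube2c read 9.61, 9.57 and 9.74 against 5.85, 3.60, 3.57, 3.31 and 3.05 in untreated liver. Rrm1, the large ribonucleotide reductase subunit, read 9.07, 8.94 and 8.85 against 7.03, 7.28, 4.63, 5.36 and 4.87, and Bub1, a checkpoint kinase, 7.85, 7.60 and 7.49 against 2.79 to 3.17. No neonatal sample overlapped an untreated one for these genes. All 20 mitotic and 18 replication genes were called higher, beside 14.3% of all genes, and all 38 had samples that did not overlap, beside 18.8% of all genes. Medians were 4.01 and 2.69, with ranges of 1.66 to 5.76 for mitotic and -2.86 to 5.01 for replication genes. Birc5 (5.39 ± 0.68), Ccnb2 (5.27 ± 0.66) and Mcm4 (3.59 ± 0.47, adjusted p = 3.84e-07) were among those higher. Orc1 differed by 0.17 and Mcm10 by -2.86 (5.78% of all genes were called lower). Leaving out untreated samples 1 and 2, a setting added after seeing the data, gave 39 calls. Also higher were 31 of 36 other mitotic genes, 15 of 20 cyclin, CDK and E2F genes, all 10 epithelial markers and 7 of 10 neutrophil and precursor markers, whose means were 6.02 to 7.42 in neonatal against 3.46 to 4.51 in untreated liver. Prom1 was higher by 6.84 ± 0.86, and the actin 3' minus 5' difference was 0.72 to 0.86 in neonatal against 1.05 to 1.73 in untreated liver, without overlap. The part of cell makeup and RNA quality was not tested.

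DDC liver cells lay between, and their mitotic means were the most spread of the sorted groups (SD 1.14), unlike their replication means (SD 0.41). Ccnb2, the mitotic cyclin, ran from 4.86 through a median of 7.04 to 9.17, above the untreated range of 3.58 to 4.12. Cdt1 ran from 8.20 through 8.69 to 9.06 and did not overlap the untreated values either. Rrm2 ran from 4.49 through 5.92 to 8.23. Called higher than in untreated liver were 17 mitotic and 12 replication genes, beside 10.3% of all genes, with Mcm10 lower (-2.85 ± 0.44; 3.50% of all genes), a call that was lost at -0.74 without _s_, _x_ and _a_ probe sets. Ccnb2 differed by 3.38 ± 0.51, Cdt1 by 3.69 ± 0.31 (adjusted p = 4.35e-11) and Rrm2 by 2.81 ± 0.44. Kif11 (0.84), Bub1b (0.28) and Kif23 (0.27) were not called. Without untreated samples 1 and 2 the count was 32. The Gapdh 3' minus 5' difference was 0.25 to 0.55 in DDC against 0.90 to 1.23 in untreated liver, and its part was not tested. This comparison shares its untreated samples with the neonatal one and with HCC/CC, so their values stand side by side only.

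Within the DDC group (n = 9) the mitotic mean was higher where Prom1 (r = 0.905) and the epithelial marker mean (0.814) were higher. It was lower where macrophage (-0.9), fibroblast (-0.919), lymphocyte (-0.855) and endothelial (-0.697) marker means were higher. Samples 3, 6 and 7 had mitotic means of 7.29, 7.13 and 7.26, Prom1 levels of 9.24 to 9.31 and macrophage marker means of 7.81 to 8.15. Samples 1 and 2 had mitotic means of 4.46 and 4.74, Prom1 levels of 3.92 and 3.31 and macrophage marker means of 11.1 and 11.3. The replication means of the same samples differed less, with 6.93 to 7.14 in the first 3 and 6.39 and 6.79 in the others. Samples 4, 5, 8 and 9 lay between in their mitotic means, at 6.01, 5.34, 5.15 and 4.96. The actin 3' minus 5' difference was 1.29, 1.39 and 1.38 in samples 3, 6 and 7 and 0.54 in both samples 1 and 2, so here it was larger where the mitotic mean was higher. The part of macrophages or RNA quality in the DDC values was not tested.

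**Figure D3:**
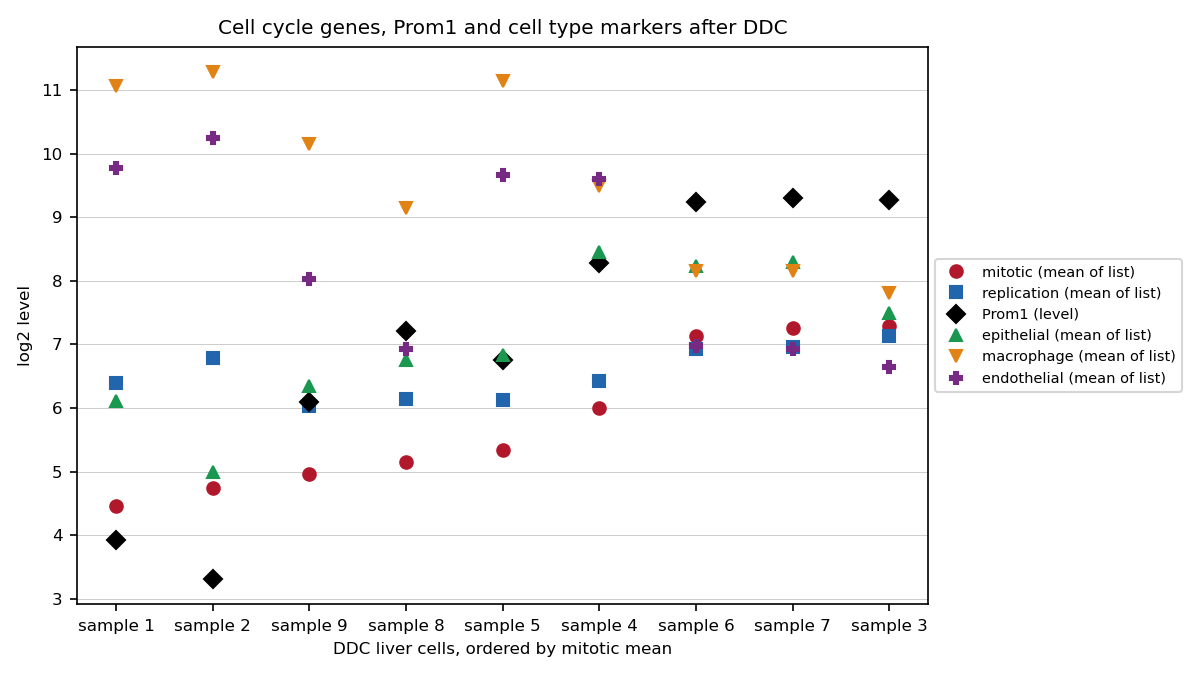
Log2 levels in the 9 DDC liver samples, ordered by mitotic mean: the means of the mitotic, replication, epithelial, macrophage and endothelial lists and the level of Prom1, with 1 symbol per sample. The 3 samples at the right, with mitotic means of 7.13 to 7.29, have Prom1 above 9 and macrophage means of 7.81 to 8.15, while samples 1 and 2 at the left have Prom1 below 4 and macrophage means above 11.

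Against DDC cells, neonatal liver cells had 31 members called higher, 19 mitotic and 12 replication, beside 5.04% of all genes. Bub1 ran in DDC cells from 3.25 through a median of 4.44 to 6.66, below all neonatal values, and differed by 2.90 ± 0.55 (adjusted p = 3.03e-04). Ube2c (2.60 ± 0.61) and Top2a (2.59 ± 0.50) followed, then Rrm2 (2.19 ± 0.53), Prim1, the primase subunit (1.76 ± 0.38), and Tyms (1.70 ± 0.42). Kif20a (1.58) was the mitotic gene not called. The samples of 16 mitotic and 15 replication genes did not overlap, beside 9.49% of all genes. Without neonatal sample 1 or 2 the count was 20. Without _s_, _x_ and _a_ probe sets Top2a (0.53) and Tyms (0.28) lost their calls.

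HCC/CC, the commonest tumour here, had a moderate and uneven rise over untreated liver cells. In every comparison of tumours with sorted cells, dissected tissue stood against bead-sorted cells whose RNA was taken with another kit. Tumour, tissue handling and kit cannot be told apart there. Rrm2 ran from 5.36 through a median of 7.02 to 8.11 in the 14 tumours, above the untreated range of 3.42 to 3.90, and differed by 3.25 ± 0.41 (adjusted p = 1.27e-05). Cdt1 ran from 6.41 through 7.66 to 8.35 and differed by 2.54 ± 0.40. Ube2c ran from 5.32 through 6.73 to 8.85, with a difference of 2.92 ± 0.56, and overlapped 1 untreated sample at 5.85. Altogether 24 members were higher, 13 mitotic and 11 replication, beside 11.2% of all genes, and Mcm10 was lower (-2.83 ± 0.62; 4.02%), a call lost at -0.68 without _s_, _x_ and _a_ probe sets. Mki67 (2.20 ± 0.54), Ccna2 (2.14 ± 0.47) and Mcm6 (2.20 ± 0.44) were among those higher. The tumours also had 9 of 12 endothelial markers lower and 6 of 12 fibroblast markers higher, and a Gapdh 3' minus 5' difference of 0.15 to 0.70 against 0.90 to 1.23 in untreated liver, and the part of these was not tested.

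Against DDC liver cells, HCC/CC had 3 members lower, beside 2.96% of all genes: Cdt1 (-1.15 ± 0.23, adjusted p = 0.00124), Mcm6 (-1.14 ± 0.31) and Cdk1 (-1.01 ± 0.33, adjusted p = 0.0394). Their samples overlapped. The call of Cdk1, the kinase that drives entry into mitosis, was lost in 13 of 23 fits with a sample left out, and that of Cdt1 with the mean of all probe sets (-0.66) and without _s_, _x_ and _a_ probe sets (-0.88). The count was 5 or 6 without HCC/CC sample 5 or 9 or DDC sample 1, 8 or 9.

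The 2 hepatoblastomas stood below neonatal liver cells for every member, with medians of -2.76 for mitotic and -1.55 for replication genes. Ccnb2 read 4.42 and 6.56 against 9.05, 8.99 and 9.13, and Rrm1 6.64 and 6.67 against 9.07, 8.94 and 8.85. All 20 mitotic and 18 replication genes did not overlap, beside 21.3% of all genes. Called lower were 11 mitotic and 12 replication genes, beside 4.35% of all genes. Ccnb2 (-3.57 ± 0.60, adjusted p = 0.0284), Bub1 (-3.46 ± 0.59) and Top2a (-3.45 ± 0.52) led the mitotic genes. Rrm2 (-3.15 ± 0.50), Cdc6, the helicase loader (-2.42 ± 0.30), and Rrm1 (-2.30 ± 0.19) led the replication genes. No call was left without neonatal sample 1 or 3, and 4 were left without sample 2. Top2a lost its call at -1.28 with the mean of all probe sets and at -0.36 without _s_, _x_ and _a_ probe sets. Hepatoblastoma 1 had a mitotic mean of 4.23 and hepatoblastoma 2 of 6.09, while their replication means were 6.29 and 6.03. Their epithelial marker means were 6.51 and 5.26, against 8.50 to 9.11 in neonatal cells. Neutrophil and precursor marker means were 4.79 and 4.44 against 6.02 to 7.42. The actin 3' minus 5' difference was 0.90 and 1.36 against 0.72 to 0.86. The part of these was not tested.

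Prostatic adenocarcinoma had the largest median mitotic increase among the 9 comparisons of tumours with sorted cells. Mcm6 ran from 7.80 through a median of 8.59 to 8.90 in the 8 tumours, above the prostate values of 5.67, 5.47 and 6.19. Ccna2 ran from 3.45 through 7.43 to 8.59 and Birc5 from 2.99 through 7.01 to 8.37, where the lowest value of each was that of tumour 8 and the other 7 lay above the prostate cells. Called higher were 18 mitotic and 7 replication genes, beside 7.90% of all genes, with medians of 2.18 and 1.01. Ccna2 (3.71 ± 0.83, adjusted p = 0.00633), Cdk1 (3.50 ± 0.98) and Birc5 (3.39 ± 0.84) led the mitotic genes, and Mcm6 (2.73 ± 0.24, adjusted p = 1.68e-05), Mcm7 (1.99 ± 0.38) and Rrm1 (1.45) the replication genes. Aurkb, the chromosomal passenger kinase, differed by 1.53 and Kif23 by 0.21 without a call, and Rrm2 by -0.02, with prostate cells at 8.01, 6.11 and 5.29. Tumour 8 had a mitotic mean of 3.39 beside 6.07 to 7.42 in the others, and without it 19 mitotic and 11 replication genes were called. Without prostate sample 1, 2 or 3 the counts were 13, 15 and 14. In the tumours 5 of 12 fibroblast markers were higher and 5 of 12 macrophage markers lower, and the Gapdh 3' minus 5' difference was 0.38 to 0.95 against 0.98 to 1.09 in prostate cells. The part of these was not tested.

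Against uterus cells, uterine carcinoma had a larger median rise in mitotic than in replication genes. Bub1b, a spindle checkpoint kinase, read 7.04, 8.64 and 8.55 in the carcinomas against 5.67, 5.34, 5.47 and 5.32 in uterus cells. Ube2c read 9.72, 10.5 and 10.4 against 8.45, 7.57, 7.16 and 7.996, and Cenpf, a kinetochore protein, 8.01, 8.997 and 8.88 against 6.65, 6.36, 6.06 and 6.40. These 3 genes did not overlap. Among replication genes Mcm6 read 8.51, 9.57 and 9.11 against 8.76, 8.60, 8.58 and 9.15, and Cdt1 8.40, 9.34 and 8.92 against 9.12, 8.90, 8.99 and 8.90, which overlapped. Mcm3, Gins1 and Pcna overlapped as well.

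In all, 19 mitotic genes but 1 replication gene were called higher in uterine carcinoma, beside 5.09% of all genes. The medians were 1.70 and 0.58, beside 0.04 over all genes, and 20 mitotic and 18 replication genes were higher in sign. Bub1b differed by 2.63 ± 0.38 (adjusted p = 0.00326), Ube2c by 2.41 ± 0.32 and Cenpf by 2.26 ± 0.27, while the replication gene called was Rrm2 (1.26 ± 0.25, adjusted p = 0.0116). Kif23 (1.27) was the mitotic gene not called. Mcm6 differed by 0.29, Pcna by 0.15, Gins1 by 0.02, Cdt1 by -0.09 and Mcm3 by -0.10. The samples of 19 mitotic and 3 replication genes did not overlap, beside 17.2% of all genes, and at an unadjusted p under 0.05 there were 20 and 9. The wider lists split alike, with 25 of 36 other mitotic and 4 of 36 other replication genes higher. The difference between the classes was not tested as such. Without carcinoma 2 or uterus sample 2 or 3 the mitotic calls numbered 12, 11 and 12, with 1 replication call each, and with all samples of the series in 1 fit 10 and 0. Other settings gave more replication calls. There were 20 mitotic and 6 replication calls without carcinoma 1, 17 and 4 without uterus sample 4, and 20 and 3 with array weights. In the carcinomas 10 of 12 macrophage markers were lower (means 7.62 to 8.64 against 10.1 to 10.5), and their part was not tested.

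**Figure D4:**
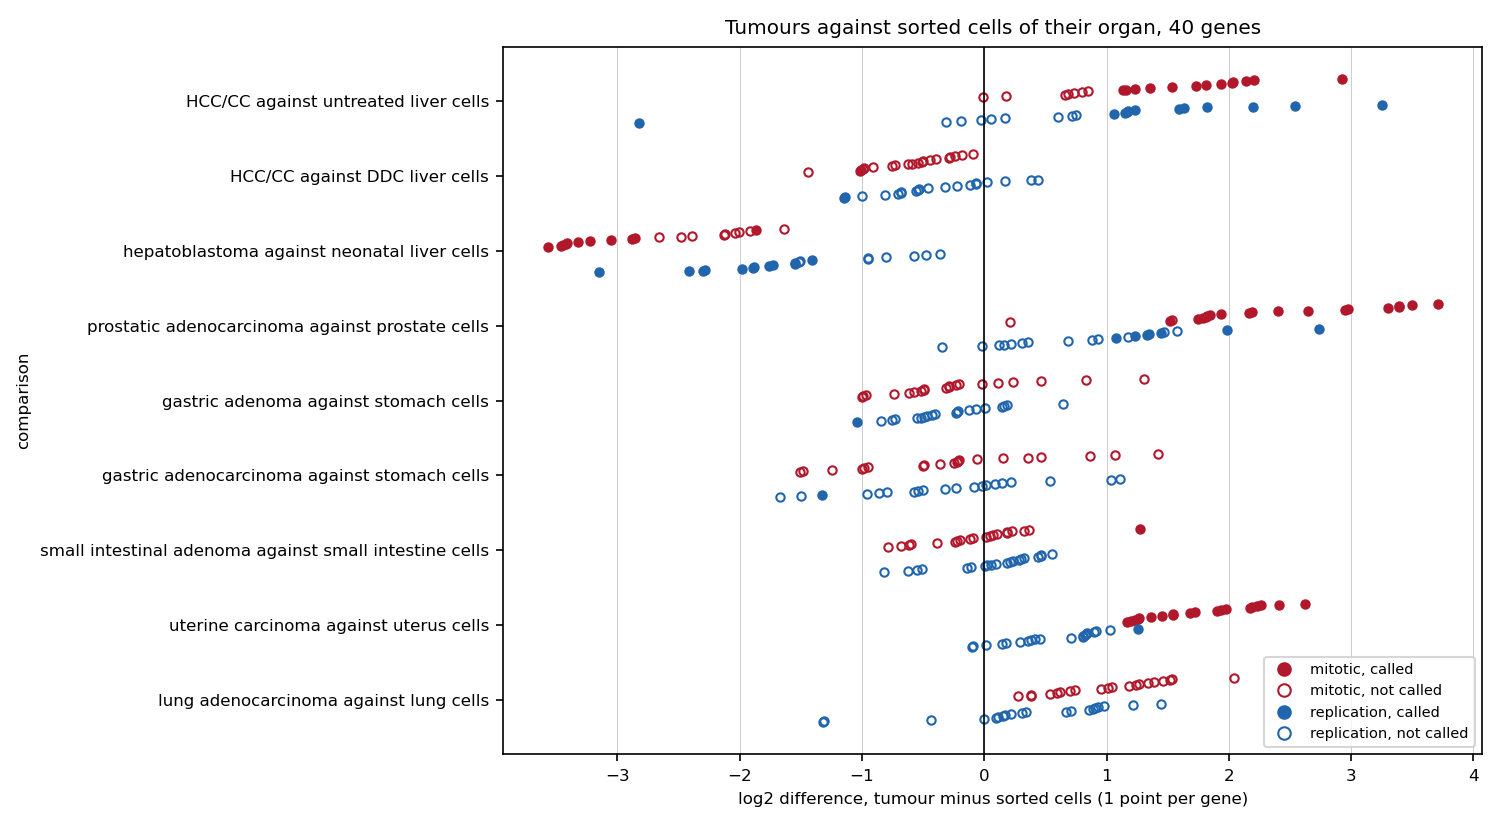
Log2 difference of each of the 40 genes between tumours and sorted cells in 9 comparisons, with 1 point per gene, mitotic genes in red and replication genes in blue, filled where called. In uterine carcinoma the mitotic points lie between 1.16 and 2.63 and the replication points between -0.10 and 1.26, and in the gastric and small intestinal comparisons both classes straddle 0.

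Gastric adenoma, gastric adenocarcinoma and small intestinal adenoma each had 1 member called against the sorted cells of their organ, whose class means were themselves high. In gastric adenoma the medians were -0.30 for mitotic and -0.32 for replication genes. Tyms was the only member called, at 7.65 through 8.38 to 8.72 against 9.79 and 9.04 (-1.04 ± 0.29, adjusted p = 0.0426, beside 1.97% of all genes called lower). In gastric adenocarcinoma Tyms read 8.28, 8.33, 7.26 and 8.46 and was again the only call (-1.33 ± 0.40, adjusted p = 0.0429, beside 7.04%). Both Tyms calls were fragile, being lost in 8 of 9 and 6 of 6 fits with a sample left out. Without _s_, _x_ and _a_ probe sets the differences were 0.46 and 0.31. These came from a set near the background (mean level 3.24), so their sign says little. Without gastric adenocarcinoma 1 there were 6 calls.

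In small intestinal adenoma Kif23 read 4.56, 5.85 and 5.54 against 4.21, 4.04 and 3.87 in small intestine cells, did not overlap and was the only call (1.27 ± 0.36, adjusted p = 0.0393, beside 8.72% of all genes called higher). It was lost in 5 of 6 fits with a sample left out. Without _s_, _x_ and _a_ probe sets Kif23 differed by -0.24, but was then read from a set near the background (mean level 2.98). Ube2c read 9.06, 9.70 and 9.73 in these adenomas, a difference of -0.78 ± 0.29 without a call. In lung adenocarcinoma, with 2 samples, limma called none of the 40, beside 4.16% of all genes in either direction, and at an unadjusted p under 0.05 there were 6 mitotic genes higher and 1 replication gene lower. Ccna2 read 6.38 and 6.75 against 4.06, 5.86, 3.51 and 4.68 in lung cells, with a difference of 2.04 ± 0.74 (adjusted p = 0.188), and Pcna 10.7 and 9.36 against 11.2 to 11.6, with -1.32 ± 0.38. The samples of both genes did not overlap.

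Whether the tumour-minus-sorted difference itself varied by organ was tested against its mean over the other 5 organs. The tumours were HCC/CC (against untreated liver cells), prostatic adenocarcinoma, gastric adenoma, small intestinal adenoma, uterine carcinoma and lung adenocarcinoma. Gastric adenocarcinoma and hepatoblastoma were not part of it, so adenomas stood beside carcinomas. In prostate it was larger for 10 members, 8 mitotic and 2 replication, beside 2.63% of all genes, among them Ccna2 (2.83 ± 0.70, adjusted p = 0.00493), Birc5 (2.77 ± 0.81), Mki67 (2.71 ± 0.79), Mcm6 (2.09 ± 0.51) and Mcm7 (1.32 ± 0.42). The count was 20 without prostatic adenocarcinoma 8 and 3, 3 and 4 without prostate sample 1, 2 and 3. In liver 6 replication genes had a larger difference, beside 8.39% of all genes: Rrm2 (2.73 ± 0.52, adjusted p = 8.86e-05), Cdt1 (2.55 ± 0.40), Fen1 (1.499 ± 0.35), Mcm6 (1.45), Gins2 (1.06) and Mcm2 (1.03). Mcm10 (-3.01 ± 0.57) and Bub1b (-1.28 ± 0.39) had a smaller one, beside 5.86%. Mcm10 lost its call without _s_, _x_ and _a_ probe sets (-0.46), and Bub1b with the mean of all probe sets (-0.80), with array weights (-0.85) and without untreated liver sample 1 (-1.02). The count of 8 became 13 without untreated liver sample 1 and 5 without sample 5.

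In stomach 5 members had a smaller difference, beside 2.37% of all genes: Ccna2 (-2.50 ± 0.80, adjusted p = 0.0494), Ttk (-1.82), Mcm6 (-1.85 ± 0.59), Tyms (-1.74 ± 0.47) and Mcm7 (-1.66 ± 0.48). Leaving out 1 sample gave 0 calls (stomach 1) to 12 (prostatic adenocarcinoma 8), and Tyms was 0.45 without _s_, _x_ and _a_ probe sets. The calls of Ccna2 and Mcm6 were lost in 40 and 34 of 58 fits with a sample left out. In uterus Bub1b had a larger difference (1.88 ± 0.52, adjusted p = 0.0131, beside 1.99%), with 0 calls without uterine carcinoma 2 or 3. In lung Pcna had a smaller one (-1.60 ± 0.46, adjusted p = 0.0118, beside 5.05%), which was -0.94 without lung adenocarcinoma 2. In small intestine limma called none, beside 8.86% in either direction, and 7 mitotic and 2 replication genes were lower at an unadjusted p under 0.05.

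Uterine and squamous carcinomas were compared with the internal carcinomas. Bub1 averaged 7.87 in uterine carcinoma against 5.18 over the other internal carcinomas (HCC/CC, gastric, prostatic and lung), and 19 mitotic and 12 replication genes were called higher, beside 5.78% of all genes. Bub1 differed by 2.70 ± 0.61 (adjusted p = 0.00112), Ube2c by 2.56 ± 0.70 and Top2a by 2.37 ± 0.57, and Mcm5 by 1.85 ± 0.47, Rrm2 by 1.79 ± 0.57 and Cdc6 by 1.54 ± 0.41. Without uterine carcinoma 2 or 3 the count of 31 became 7 or 15. Top2a lost its call without _s_, _x_ and _a_ probe sets (0.85), Mcm5 with the mean of all probe sets (0.91), and Rrm2 with that mean and with median centring.

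In squamous carcinomas Ttk, a checkpoint kinase, read 6.94, 7.18, 7.08 and 6.46 at the perineal and 6.65, 6.39 and 6.78 at the perioral site. Prim1 read 8.07, 8.41, 8.38 and 8.13, and 8.42, 7.91 and 8.10. Against the 5 internal carcinoma types, 12 mitotic and 4 replication genes were higher, beside 7.64% of all genes, with medians of 1.18 and 0.50. Ttk differed by 1.76 ± 0.33 (adjusted p = 1.79e-05), Top2a by 1.60 ± 0.40 and Mki67 by 1.54 ± 0.45, and the replication genes were Prim1 (1.496 ± 0.22, adjusted p = 1.89e-07), Tk1 (1.38 ± 0.35), Rrm2 (1.23 ± 0.41) and Rrm1 (1.01 ± 0.20). The mean of all probe sets left Ttk at 0.93 and Top2a at 0.75 without a call, and Top2a was 0.67 without _s_, _x_ and _a_ probe sets. In squamous tumours 8 of 12 macrophage markers were lower, which was not tested as a source. Between perineal and perioral tumours limma called no member, beside 1.98% of all genes in either direction, with 0 at an unadjusted p under 0.05.

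Large intestinal adenomas stood below small intestinal ones for 39 of 40 members in sign, and the calls were replication genes. Mcm6 read 8.59, 8.28, 6.06, 8.83 and 8.18 against 9.45, 9.49 and 9.73, and Mcm7 8.20, 7.67, 6.47, 8.32 and 7.30 against 8.92, 8.95 and 9.16, without overlap. Called lower were 6 replication genes, beside 3.67% of all genes: Mcm6 (-1.57 ± 0.50, adjusted p = 0.0328), Cdc6 (-1.48 ± 0.48), Mcm7 (-1.42 ± 0.39), Gins1 (-1.42), Cdc45, a helicase activator (-1.23), and Mcm2 (-1.03). The mitotic median of -1.11 was close to the replication median of -1.02, though no mitotic gene was called. At an unadjusted p under 0.05 there were 6 mitotic and 14 replication genes. With array weights 7 mitotic and 8 replication genes were called lower, so the lack of mitotic calls depends on the setting. Without large intestinal adenoma 3 the count was 1, without adenoma 4 it was 10, and without small intestinal adenoma 1, 2 or 3 it was 3, 2 and 1.

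Gastric adenocarcinoma differed from gastric adenoma in Cdc6, at 6.05, 4.80, 3.81 and 4.81 against 5.66 through 6.39 to 7.03, with overlap (-1.60 ± 0.41, adjusted p = 0.00199, beside 7.17% of all genes called lower). Without adenocarcinoma 3 there were 3 calls. Hepatoblastoma against HCC/CC gave 0 calls in limma, beside 3.49% of all genes in either direction, with 2 replication genes higher and 2 lower at an unadjusted p under 0.05. Prostatic against the other internal carcinomas gave 0 as well, beside 9.80%, with 1 mitotic and 1 replication gene lower at that level.

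Metastases were single samples, so only positions can be given. In the lung metastasis of hepatoblastoma 14 of 20 replication genes lay above both primaries, beside 27.6% of all genes, and no mitotic gene did, with class means of 6.72 against 6.03 and 6.29, and of 5.01 against 4.23 and 6.09. The intestine metastasis of HCC/CC had 11 mitotic and 5 replication genes above all 14 primaries, beside 8.72% of all genes, and the lung metastasis 11 and 6, beside 11%. Their mitotic means were 6.52 and 6.65, and the highest primary had 6.52. The abdomen metastasis of uterine carcinoma lay below all 3 primaries for 20 mitotic and 18 replication genes, beside 25.1% of all genes, while its liver metastasis did so for 2 and 4, beside 27.3%. The gastric abdomen metastasis exceeded all 4 primaries for 3 mitotic and 5 replication genes, beside 25.2%, and the gastric liver metastasis for none of the 40, beside 16.5%.

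Within groups of at least 7 samples the class means also moved together, to different degrees. The r was 0.99 in prostatic adenocarcinoma (n = 8), 0.982 in gastric adenoma (n = 7) and 0.542 in HCC/CC (n = 14), and 0.935, 0.909 and 0.665 without the 2 samples farthest from the median, again over values that share arrays. In HCC/CC the classes parted in single tumours. HCC/CC 9 had the highest mitotic mean of its group, 6.52, with a replication mean of 5.87 in the lower part of the range, and HCC/CC 4 had 4.55 with a replication mean of 6.63 near the top of it. In DDC liver cells (n = 9) the r was 0.742, and 0.494 without the 2 samples farthest from the median.

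**Figure D5:**
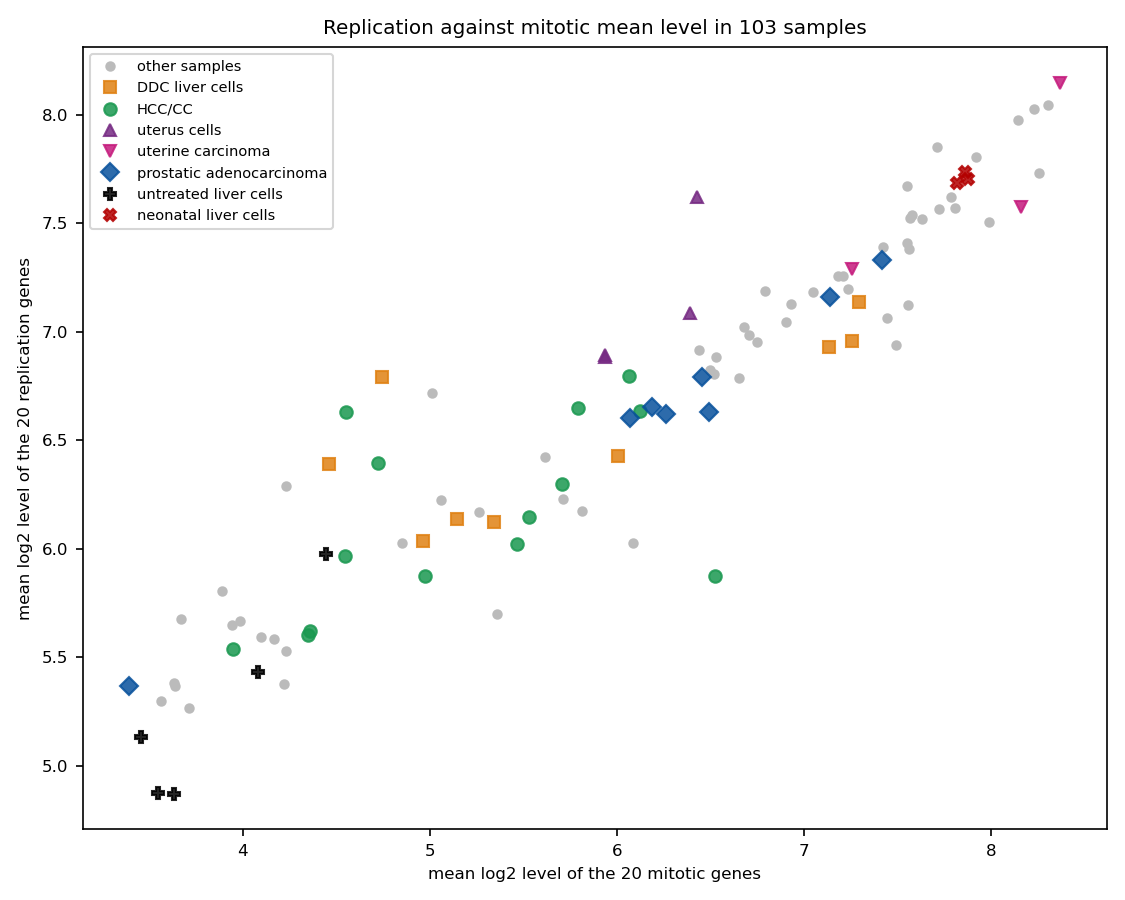
Mean log2 level of the 20 replication genes against that of the 20 mitotic genes in every sample, with 1 point per sample and 7 groups coloured. Uterus cells (replication 6.88 to 7.62 at mitotic 5.93 to 6.43) lie at the upper edge of the samples of like mitotic mean, beside the abdomen metastasis of uterine carcinoma, and HCC/CC 9 lies at the lower edge (5.87 at 6.52).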

How the data were processed

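Each sample was hybridised to its own Affymetrix mouse array with perfect match probes. Per the labels' protocols, tumour RNA was taken with an RNeasy Mini kit and sorted-cell RNA with a PicoPure kit. Values were deposited on the log2 scale, which their range of 1.85 to 14.4 fits. Partek 6.6 is named, per the submitters' processing notes, and the normalization and background correction were not given in the sources used, which could shift levels between tumours and sorted cells. Of 45141 probe sets, 104 controls, 551 assigned to several genes and 15588 that the annotation does not list were left out, and 28898 gave 17097 genes. Differences were fitted with limma 3.58.1 (R 4.3.3; lmFit, contrasts, eBayes with trend) over all genes without a filter, with the data.table package, version 1.17.8. Plots used matplotlib 3.10.9, pandas 2.3.3 and numpy 2.4.6 under Python 3.11.15. Sorted groups shared 1 fit, as did primary tumours with at least 2 samples, and tumours against sorted cells were fitted on the compared groups. p-values were adjusted by Benjamini-Hochberg per comparison. The steps were tested on simulated data. The closest arrays had an r of 0.993. Genes were named with values by a rule: the 3 members of a class with the largest called difference, and uncalled members where at least 15 of a class of 20 were called, though any of the 40 could be named. Members and lists were chosen with earlier results of these data known. The number of arrays limits the precision.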

Additional observations from a re-analysis of the deposited data

Results flagged for a closer look

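In 80 checks of a class mean or of Mki67, Top2a, Ccnb2, Pcna, Mcm5 or Mcm6 within a group of 4 to 10 samples, 11 had a sample standing apart from the rest, where chance gives about 1 in 20. Among these, 7 concern prostatic adenocarcinoma 8, with a mitotic mean of 3.39, a replication mean of 5.37, Mki67 at 3.36, Top2a at 5.16, Ccnb2 at 2.89, Pcna at 9.95 and Mcm5 at 3.61, each the lowest of its group. Its epithelial marker mean was 10.8 and its actin 3' minus 5' difference 1.002, beside 0.61 to 0.78 in the other 7 tumours. Large intestinal adenoma 3 was low for Mcm5 (4.16) and Mcm6 (6.06), gastric adenoma 4 was low for Mcm6 (6.98), and uterus sample 4 was high for Pcna (11.98). The tumour-minus-sorted difference varied between organs for 8 members in liver, 10 in prostate, 5 in stomach, 1 in uterus and 1 in lung. Of all genes, 8.39% were called higher and 5.86% lower in liver, and 2.63% higher in prostate. The shares were 2.37% lower in stomach, 1.99% higher in uterus and 5.05% lower in lung.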

How the results depend on the processing

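No paired analysis was possible because the labels name no animals and each sample title carries its own number. Whether compared groups share animals is unknown. Of 40 members, the number called kept within 1.5 times of the reported one under the 7 alternatives run for kidney, untreated liver, small intestine and stomach cells, neonatal and DDC against untreated liver cells, neonatal against DDC liver cells, prostatic adenocarcinoma against prostate cells, both uterine and prostatic carcinoma against the other internal ones, and squamous carcinomas, leaving out single samples aside. Perineal against perioral tumours kept 0 calls under all 7. For the remaining comparisons the cause of the change was not tested. With median centring the count was 11 in uterus cells, 16 in HCC/CC against untreated liver, 5 in gastric adenoma, 7 in gastric adenocarcinoma, 5 with the direction reversed in small intestinal adenoma, 1 in lung adenocarcinoma, 2 in gastric adenocarcinoma against adenoma, 1 in hepatoblastoma against HCC/CC, and 2 each for the organ differences of small intestine and uterus. With the mean of all probe sets it was 4 in lung, 9 in prostate and 11 in salivary gland cells, 0 in gastric adenoma, gastric adenocarcinoma and small intestinal adenoma, and 1 and 2 for the organ differences of stomach and lung. With array weights it was 1 in lung cells, 6 in HCC/CC against DDC cells, 0 in gastric adenoma and adenocarcinoma, 2 in lung adenocarcinoma, 4 in gastric adenocarcinoma against adenoma, 15 in large against small intestinal adenoma, and 15, 20, 16 and 6 for the organ differences of liver, prostate, small intestine and uterus. Without _s_, _x_ and _a_ probe sets it was 14 in hepatoblastoma against neonatal liver, 0 in gastric adenoma, gastric adenocarcinoma, small intestinal adenoma and gastric adenocarcinoma against adenoma, and 6, 2 and 2 for the organ differences of prostate, stomach and uterus. That setting left Birc5, Kif20a, Aurkb, Mcm7, Cdc6 and Fen1 without any probe set, so they could not be called in it. Its 0 in gastric adenocarcinoma against adenoma is therefore no test of Cdc6, the only call there. Quantile normalization gave 2 in gastric adenoma and in gastric adenocarcinoma, 0 in small intestinal adenoma and 8 for the organ difference of stomach. All samples of the series in 1 fit gave 1 in gastric adenoma with the direction reversed, 4 in gastric adenocarcinoma, 10 in uterine carcinoma, 5 in lung adenocarcinoma and 2 each for the organ differences of small intestine and lung. A filter at the 40th percentile gave 2 in gastric adenocarcinoma against adenoma, 1 in hepatoblastoma against HCC/CC and 1 for the organ difference of small intestine.

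Leaving out each sample in turn gave 24 to 27 calls in kidney, 28 to 33 in untreated liver, 6 to 14 in lung, 10 to 19 in prostate, 6 to 21 in salivary gland, 36 to 38 in small intestine, 5 to 29 in stomach and 17 to 24 in uterus cells. It gave 38 to 39 for neonatal and 27 to 32 for DDC against untreated liver, 20 to 33 for neonatal against DDC liver, 20 to 25 for HCC/CC against untreated and 2 to 6 against DDC liver, and 0 to 34 for hepatoblastoma against neonatal liver. It gave 13 to 30 for prostatic adenocarcinoma, 0 to 2 for gastric adenoma (1 with the direction reversed without adenoma 4), 0 to 6 for gastric adenocarcinoma (1 reversed without stomach 1), 0 to 2 for small intestinal adenoma (2 reversed without small intestine cells 1), 12 to 26 for uterine carcinoma and 0 to 1 for lung adenocarcinoma. Among tumours it gave 1 to 4 for gastric adenocarcinoma against adenoma (3 without adenocarcinoma 3, of which 2 higher and 1 lower, so the balance reversed), 1 to 10 for large against small intestinal adenoma, 0 to 0 for perineal against perioral tumours, 0 to 1 for hepatoblastoma against HCC/CC, 13 to 19 for squamous, 0 to 1 for prostatic and 7 to 31 for uterine carcinoma. For the organ differences it gave 5 to 13 in liver, 3 to 20 in prostate, 0 to 12 in stomach, 0 to 3 in small intestine, 0 to 2 in uterus and 0 to 2 in lung. Single genes reversed without _s_, _x_ and _a_ probe sets: Mcm10 in lung cells (0.43), Top2a in uterus cells (-0.27), Tyms in stomach cells (-0.18), gastric adenoma (0.46), gastric adenocarcinoma (0.31) and the stomach organ difference (0.45), and Kif23 in small intestinal adenoma (-0.24); 15 further calls of 109 were lost. Leaving out untreated liver samples 1 and 2, added after seeing the data, lost none of 18. Low members such as Orc1 and Kif23 are limited by signal near the background. Without the marked sets Tyms, Kif23 and Mcm10 were read from sets with mean levels of 3.24, 2.98 and 3.33, also near the background. The reversals of these genes therefore say little.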
